A study of Mus musculus with 16 samples.

Results

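Wild-type (WT) bone marrow from mice given 5-fluorouracil (5-FU) was compared with WT marrow from mice not given it, with BMX-001 treatment (given or not) kept as a block. All 8 WT libraries of a series of 16 entered the comparison, 4 with and 4 without 5-FU. The 4 with 5-FU were 2 from mice given 5-FU alone (WT 5-FU) and 2 from mice given BMX-001 and 5-FU (WT BMX-001+5-FU). The 4 without it were 2 from mice given PBS, labelled as controls (WT PBS), and 2 from mice given BMX-001 alone (WT BMX-001). WT mice were C57BL/6 males of 8 to 10 weeks, and the genotype label spells the strain CB57BL/6. Mice in the 5-FU groups received 20 mg/kg and a repeat dose 7 days later, and all marrow was collected on day 10, that is 3 days after the repeat. BMX-001, a redox-active manganese porphyrin, was given at 0.5 mg/kg, 24 h ahead of 5-FU and every 3 days from then on. The other 8 libraries came from Nrf2-/- mice (KO), bred from Nrf2+/- parents, under the same 4 treatments, and serve below as a second genotype. The sources used here give neither their age nor their sex.

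5-FU is converted in cells to nucleotides that block thymidylate synthase, the enzyme that makes the thymidine precursor for DNA, and that enter RNA and DNA in place of the natural bases. Dividing marrow progenitors are among the normal cells most exposed to it, and the transcription factor p53, which switches on cell cycle arrest and death genes after DNA damage, is part of the known response. Red cell precursors divide several times, fill with haemoglobin and then clear their nucleus and organelles, while B cell precursors divide between rounds of immunoglobulin gene rearrangement.

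The WT libraries held 34387432 to 39909188 counts. Levels are given as normalised CPM, counts scaled to a common library total after TMM normalisation, and fold changes as log2 of marrow with 5-FU over marrow without, ± SE. Haemoglobin, granulocyte, monocyte, B cell, megakaryocyte and stromal markers were all detected in every WT library, and the liver gene Alb and the muscle gene Myh1 were at 0. Cdh1, an epithelial gene that had also been set down as a marker of other tissue, was at 10.4 to 16.7 CPM. WT PBS replicate 2 stood apart on the first principal component (50, against -24.4 to 15.3 in the other 7 libraries, 30.5% of the variance). It held 299 CPM of the immediate early gene Fos, against 15.4 to 37.8 CPM in the other 7. The duplicates of each WT group differed by more than sampling noise (chi-square per degree of freedom 8.09 to 42.9). The labels do not say whether duplicates are different animals, so the p-values may measure technical spread only. In these bulk samples, fewer cells of a type and less RNA per cell cannot be told apart.

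The response was mostly a decrease of modest size. Of 18258 genes tested with edgeR's quasi-likelihood test, 129 (0.707%) had an adjusted p under 0.05, and these are the genes said to have risen or fallen. Of them 121 (0.663%) fell and 8 (0.0438%) rose, while the median over all genes tested was 0.004. The genes that fell did so by 0.28 to 0.80 on the log2 scale, that is 1.22- to 1.74-fold, with a median of -0.47. For 103 of the 121 that fell and for all 8 that rose, the 4 libraries with 5-FU did not overlap the 4 without. Over all genes tested, 4.57% lay wholly below and 3.3% wholly above in this way. In 88 of the 121 genes the lowest levels of the 8 were those of both WT 5-FU libraries, and in 67 the lowest library without 5-FU was WT PBS replicate 1. Of other settings quoted below for lists, DESeq2 called 407 of 18258 genes lower and 107 higher. Without a count filter, edgeR called 754 of 31918 genes lower and 391 higher.

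The number of calls depended on single libraries. Leaving out WT 5-FU replicate 2 gave 15 calls, WT BMX-001 replicate 2 gave 22, WT 5-FU replicate 1 gave 37, WT BMX-001+5-FU replicate 1 gave 64 and WT BMX-001 replicate 1 gave 263. Whichever of the 8 libraries was left out, 13 genes were called, 12 of them lower and 1 higher. These 13 were Ube2o, Vpreb3, Cat, Ubb, Rnf10, Eda2r, Cx3cr1, Pou2af1, Specc1, Fam214b, Isg20, Bcl2l1 and Cnp. Several of the 13 were picked out after their values were seen, by this property alone. Only 6 genes were called in all alternative settings. Of the 13, Vpreb3 and Cx3cr1 each lost the call in 1 of 19 alternative settings and Isg20 in 2 of 19 (adjusted p up to 0.242, 0.559 and 0.115).

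**Figure D1:**
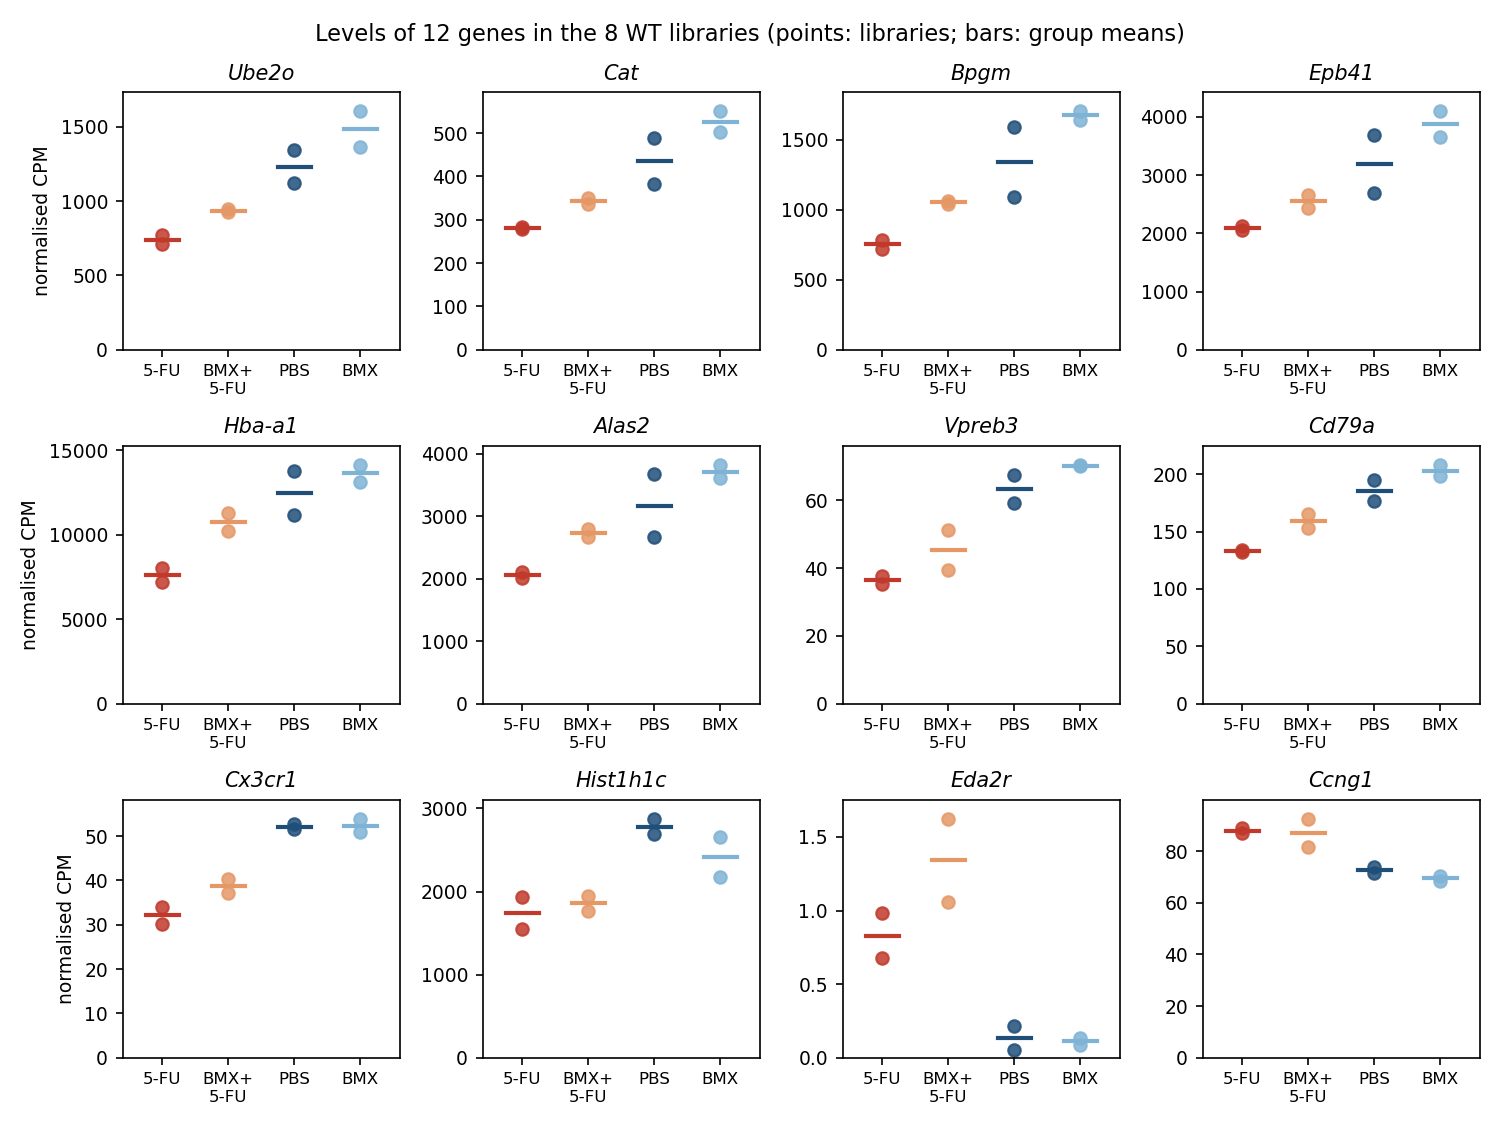
Normalised CPM of 12 genes (vertical axes, linear, from 0) in the 4 WT groups, with a point for each library and a bar for each group mean of 2. The first 10 genes are lower and the last 2, Eda2r and Ccng1, are higher in the libraries with 5-FU (5-FU and BMX+5-FU) than in those without (PBS and BMX); for Hba-a1 and Alas2 the sets overlap.

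Genes of late red cell maturation were among those that fell. Of 25 listed genes for organelle clearance and other late steps, 10 fell and none rose, and 24 had a negative fold change (median -0.43). Among all genes tested 0.663% fell, and 8973 of 18258 had a negative fold change. The list, like all lists used here, was drawn up with earlier results of these data known. Its count is therefore not independent evidence of a direction. Ube2o encodes the enzyme that tags ribosomal and other proteins for removal in maturing reticulocytes. Its level was 772 and 710 CPM in WT 5-FU and 928 and 944 CPM in WT BMX-001+5-FU libraries, against 1124 and 1342 CPM in WT PBS and 1362 and 1606 CPM in WT BMX-001 libraries. Every library with 5-FU lay below every library without it, and the change was -0.70 ± 0.08 (edgeR, adjusted p = 0.00528).

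Cat encodes catalase, which breaks down hydrogen peroxide and is abundant in red cells. It stood at 282 and 278 CPM in WT 5-FU and 336 and 349 CPM in WT BMX-001+5-FU libraries, against 382 and 489 CPM in WT PBS and 503 and 551 CPM in WT BMX-001 libraries. The groups did not overlap, and the change was -0.63 ± 0.08 (adjusted p = 0.00528). Bpgm makes 2,3-bisphosphoglycerate, the metabolite that lowers haemoglobin's hold on oxygen. Its levels were 722 and 785 CPM in WT 5-FU and 1042 and 1063 CPM in WT BMX-001+5-FU libraries, against 1087 and 1592 CPM in WT PBS and 1642 and 1703 CPM in WT BMX-001 libraries. WT PBS replicate 1 lay only just above the BMX-001+5-FU pair, and the change was -0.75 ± 0.10 (adjusted p = 0.00698).

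Specc1 (-0.72 ± 0.09) and the RNA exonuclease gene Isg20 (-0.52 ± 0.07) fell as well, both with no overlap and an adjusted p of 0.00528. The other members that fell were Tmcc2, Trim10, a ubiquitin ligase of erythroid cells, Xpo7, a nuclear transport receptor of erythroid cells, the ligase gene Mkrn1 and the autophagy gene Gabarapl2. Their fold changes lay between -0.53 and -0.43. Bnip3l, the mitophagy receptor of reticulocytes, was at -0.44 ± 0.11 but did not pass the test (adjusted p = 0.115), and nor did Gpx1 (-0.41, adjusted p = 0.0656) or Car2 (-0.17, adjusted p = 0.304).

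Globin transcripts followed the same order of libraries but with overlap. Hba-a1, an adult alpha-globin gene, was at 8040 and 7220 CPM in WT 5-FU and 11250 and 10190 CPM in WT BMX-001+5-FU libraries, against 11180 and 13740 CPM in WT PBS and 13140 and 14110 CPM in WT BMX-001 libraries. The WT 5-FU pair was lowest, while WT PBS replicate 1 lay between the WT BMX-001+5-FU libraries. The change was -0.53 ± 0.10 (adjusted p = 0.0339). Hba-a2 (-0.57 ± 0.11, adjusted p = 0.0339) and the beta-globin gene Hbb-bt (-0.51 ± 0.10, adjusted p = 0.028) also fell. The calls of Hba-a1, Hba-a2 and Hbb-bt were lost in 9, 10 and 8 of 19 alternative settings. Hbb-bs, the other beta-globin gene, was at 27350 ± 5399 CPM with 5-FU and 38200 ± 7319 CPM without (SD, n = 4 each) and did not pass (-0.49 ± 0.11, adjusted p = 0.0646). Since Hba-a1 and Hba-a2 are near-identical copies, as are the beta-globin genes, the split of reads between copies is uncertain. The 4 summed to 45510 ± 9066 CPM with 5-FU and 64140 ± 10310 CPM without, which an exact permutation test over the 8 libraries did not separate (two-sided p = 0.0857, adjusted over 14 summed lists 0.133). With offsets for GC content and length in the fit, 0 of the 4 globin genes were called and their median was -0.34.

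Of the 12 genes of haem synthesis, only Alas2, the erythroid enzyme for the first step, fell (-0.53 ± 0.09, adjusted p = 0.0223). It stood at 2021 and 2113 CPM in WT 5-FU and 2790 and 2677 CPM in WT BMX-001+5-FU libraries, against 2674 and 3672 CPM in WT PBS and 3614 and 3821 CPM in WT BMX-001 libraries. WT PBS replicate 1 lay at the level of the BMX-001+5-FU pair, so the sets overlapped. Fech, for the last step, was at -0.35 (adjusted p = 0.0656), and the list's median was -0.002.

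In the red cell membrane and skeleton, 3 of 20 genes fell (0.663% of all genes did). Epb41, the protein 4.1 that ties the skeleton to the membrane, averaged 2319 ± 279 CPM with 5-FU and 3533 ± 601 CPM without (SD, n = 4 each), a change of -0.61 ± 0.09 (adjusted p = 0.0128) with no overlap. Epb42 (-0.31 ± 0.07, adjusted p = 0.0476) and, with overlap, the complement inhibitor gene Cd59a (-0.55 ± 0.12, adjusted p = 0.0453) fell too. Each lost its call in 9 of 19 alternative settings (adjusted p up to 0.225 and 0.2). The list's median was -0.07, and the anion exchanger Slc4a1 was at -0.30 (adjusted p = 0.136).

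Genes of earlier red cell development did not pass the test. None of 12 erythroid transcription factor and erythropoietin receptor genes was called by edgeR (4 at an unadjusted p under 0.05, 0 by DESeq2), with a median of -0.03, a range of -0.19 to 0.18, and Gata1, the master regulator of the lineage, at 0.03 ± 0.07 (adjusted p = 0.855). Among 20 genes of iron handling none was called either (median -0.05, 4 lower at an unadjusted p under 0.05, 2 by DESeq2). Slc25a37, the member with the highest level, was at -0.35 ± 0.09 (adjusted p = 0.0858), with overlap. In KO libraries it was called lower (edgeR, -0.83 ± 0.10, adjusted p = 0.0134). Tfrc, the transferrin receptor of haemoglobin-making precursors, was at 1335 and 1211 CPM in WT 5-FU and 1007 and 1004 CPM in WT BMX-001+5-FU libraries, against 905 and 1108 CPM in WT PBS and 1024 and 1150 CPM in WT BMX-001 libraries. Its WT 5-FU pair was the highest of the 8 (pooled 0.11 ± 0.10, adjusted p = 0.614).

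Across the 4 lists of globin, haem, membrane and late maturation genes, 17 of 61 tested genes fell (27.9%, against 0.663% of all genes) and none rose. With 5-FU the last 3 of these lists summed to 36980 ± 2804 CPM, against 46130 ± 4502 CPM without it (SD, n = 4 each; exact permutation p = 0.0286, the smallest that 4 against 4 allows; 0.0556 within BMX-001 treatment, again the smallest possible; adjusted 0.1). The count of 17 went down to 4 when WT 5-FU replicate 2 was left out, to 5 when WT BMX-001 replicate 2 was, to 8 for WT BMX-001+5-FU replicate 2 and to 9 for WT 5-FU replicate 1. It was 4 in a fit to all 16 libraries of the series and 15 with GC and length offsets.

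Sequence near the start sites of these 17 genes was searched for the GATA motif, since GATA1 drives many red cell genes. A RefSeq promoter entry (GRCm38.p6, 250 bases before to 50 after the start) was found for 15 of them, and AGATAA or TGATAA on either strand was present in 5, against 19% of 27025 promoters. The windows around the match in the following 4 called genes are shown with the motif in capitals, read 5′ to 3′ on the gene's strand. Hba-a2 held the fifth, in a window of 46 bases identical to that of Hba-a1, so the matches of these 2 copies do not count separately.
Alas2: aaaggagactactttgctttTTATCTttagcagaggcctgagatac
Epb42: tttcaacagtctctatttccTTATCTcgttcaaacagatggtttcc
Hba-a1: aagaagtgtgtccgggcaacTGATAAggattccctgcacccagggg
Trim10: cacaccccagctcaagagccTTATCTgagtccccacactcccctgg
The Alas2 window lies at chrX:150547311-150547356 on the plus strand, with the motif starting 86 bases before the gene's start. The Epb42 window is chr2:121037078-121037123 on the minus strand, that of Hba-a1 is chr11:32283469-32283514 on the plus strand, and that of Trim10 is chr17:36869391-36869436 on the plus strand. The match is a string of letters only, and binding was not measured.

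**Figure D2:**
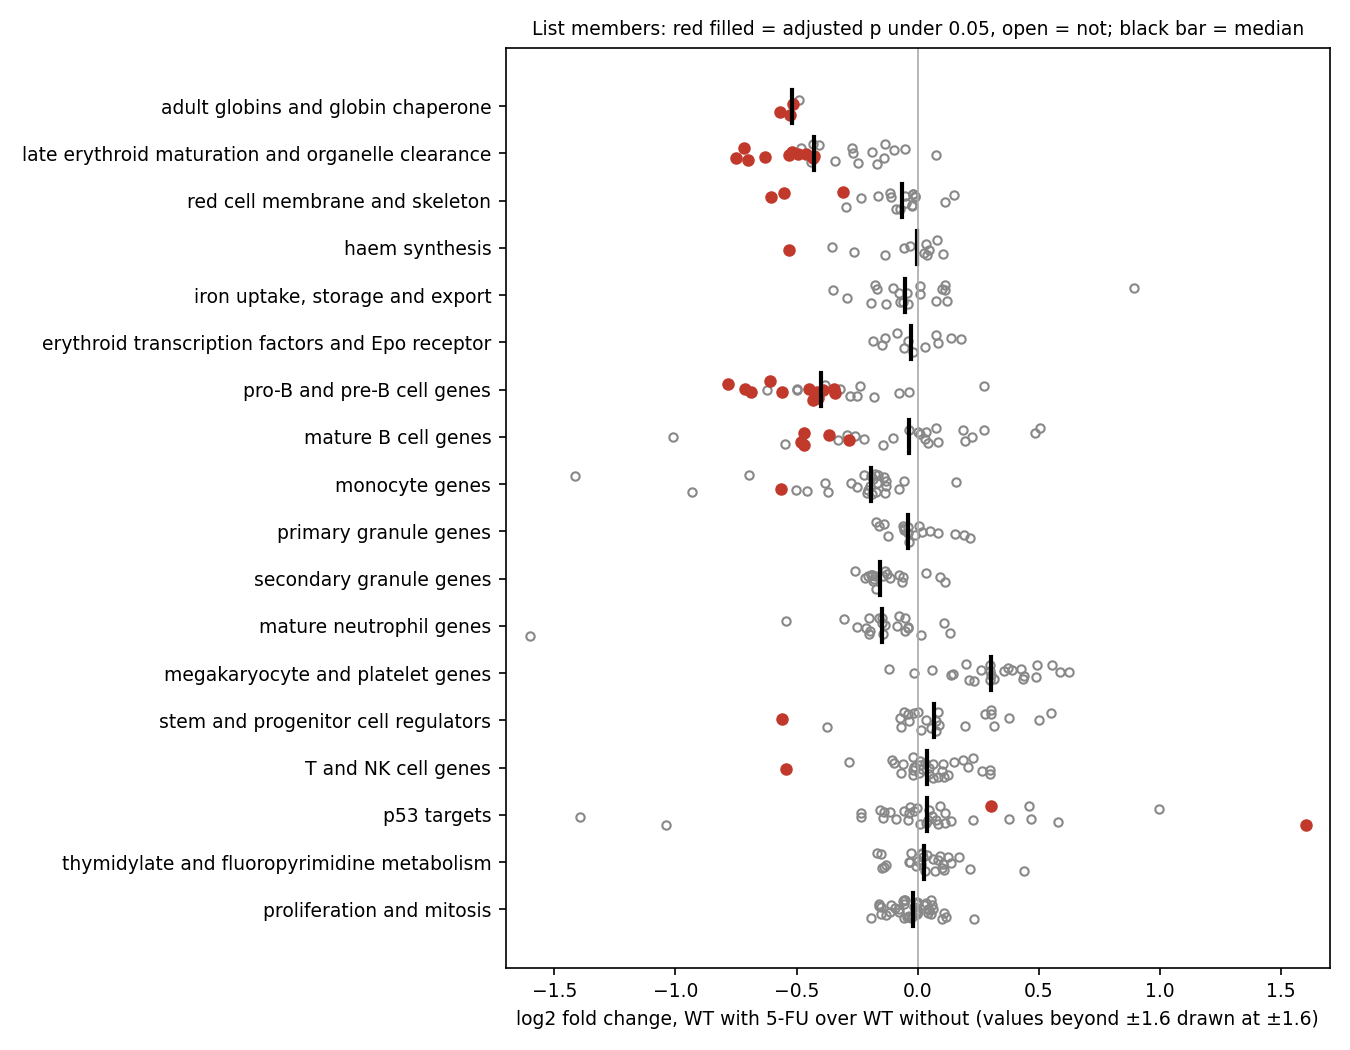
Log2 fold change, WT with 5-FU over WT without (horizontal axis), of each tested member of 18 gene lists, with filled points for genes with an adjusted p under 0.05, open points for the others and a bar at each list's median. Filled points to the left cluster in the late erythroid list (10 of 25), the globins (3 of 4) and the pro-B and pre-B list (12 of 24); the megakaryocyte list has a median of 0.30 with no gene called.

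B cell precursor genes fell alongside. Of 24 genes of pro-B and pre-B cells, 12 fell, none rose and 23 had negative fold changes (median -0.40). Of all genes tested 0.663% fell, and 8973 of 18258 were negative. Vpreb3 encodes a chaperone-like partner of the pre-B cell receptor. It was at 37.8 and 35.3 CPM in WT 5-FU and 39.5 and 51.2 CPM in WT BMX-001+5-FU libraries, against 67.3 and 59.1 CPM in WT PBS and 70.4 and 70.1 CPM in WT BMX-001 libraries. All 4 libraries with 5-FU lay below all 4 without, and the change was -0.71 ± 0.08 (adjusted p = 0.00528).

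The signalling chains of the B cell receptor complex showed the same separation. Cd79a stood at 132 and 134 CPM in WT 5-FU and 165 and 153 CPM in WT BMX-001+5-FU libraries, against 195 and 176 CPM in WT PBS and 208 and 198 CPM in WT BMX-001 libraries. Its change was -0.42 ± 0.06 (adjusted p = 0.00967), and its partner Cd79b was at -0.43 ± 0.06 (adjusted p = 0.00719), both without overlap. The adaptor Blnk, which couples that receptor to calcium signalling, averaged 64.4 ± 6.59 CPM with 5-FU and 87.8 ± 5.08 CPM without (SD, n = 4 each; -0.45 ± 0.07, adjusted p = 0.0133).

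Among regulators of B cell identity, Ebf1 (-0.39, adjusted p = 0.0422), Pax5 (-0.34, adjusted p = 0.0495) and Tcf3 (-0.34, adjusted p = 0.0369) fell, Pax5 with overlap. Sox4, which acts in progenitors of several lineages and is in the stem cell list too, was at -0.56 ± 0.10 (adjusted p = 0.0237). The remaining members called were Myl4 (-0.78 ± 0.14), Akap12 (-0.69 ± 0.10), Cplx2 (-0.61) and the chromatin remodeller Smarca4 (-0.41), the last of which acts in many cell types. Genes of the recombination machinery did not pass, and nor did those of the surrogate light chain, which marks the pro-B and early pre-B stages. Rag2 was at -0.62 ± 0.16 (adjusted p = 0.13), Rag1 at -0.28 ± 0.16 (adjusted p = 0.47), Igll1 at -0.32 ± 0.30 (adjusted p = 0.655) and Vpreb1 at -0.24 ± 0.26 (adjusted p = 0.697). Igll1 was at 10.1 and 19.7 CPM in WT 5-FU and 26.6 and 27.6 CPM in WT BMX-001+5-FU libraries, against 18 and 30.5 CPM in WT PBS and 25.3 and 27.3 CPM in WT BMX-001 libraries, so the sets overlapped and the WT 5-FU and WT PBS pairs were each widely spread.

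Mature B cell genes were divided. Of 27, 5 fell (0.663% of all genes did), but 13 had positive fold changes and the median was -0.04. Those 5 were Spib, a transcription factor shared with plasmacytoid dendritic cells (-0.47 ± 0.07, adjusted p = 0.0117), the kinase Blk (-0.37 ± 0.06, adjusted p = 0.0163), Fcrla, Cd72 and Cd37. Pou2af1, a coactivator of immunoglobulin transcription outside the lists, was at 109 and 103 CPM in WT 5-FU and 96.1 and 127 CPM in WT BMX-001+5-FU libraries, against 166 and 152 CPM in WT PBS and 169 and 171 CPM in WT BMX-001 libraries (-0.59 ± 0.08, adjusted p = 0.00528). Of 22 plasma cell genes only Irf4 fell (-0.64 ± 0.12, adjusted p = 0.0464). Irf4, which is also used in pre-B cells, lost its call in 12 of 19 alternative settings, among them RLE size factors, the replicate block and GC and length offsets (adjusted p up to 0.259).

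Over both B cell lists, 17 of 51 tested genes fell (33.3%, against 0.663% of all genes) and none rose. These lists too were drawn up with earlier results of these data known. Their counts and sums are therefore not independent evidence of a direction. The pro-B and pre-B list summed to 2211 ± 244 CPM with 5-FU and 2924 ± 145 CPM without (SD, n = 4 each; exact permutation p = 0.0286, adjusted 0.1). Leaving out single libraries brought the count of 17 down to 1 (WT 5-FU replicate 2), 4 (WT 5-FU replicate 1), 5 (WT BMX-001 replicate 2), 10 (WT PBS replicate 1) and 11 (WT BMX-001+5-FU replicate 1). It was 0 in the fit to all 16 libraries, where the median over both lists was -0.28, as it was in the 8 WT libraries. The core motif of the B cell factor EBF1, CCCNNGGG, was found in 1 of 10 promoters of the called precursor genes, against 13.4% of all promoters.

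Granulocyte genes did not pass the pooled test. With edgeR none of 18 primary granule genes was called (median -0.04, 2 at an unadjusted p under 0.05, 0 by DESeq2), none of 20 secondary granule genes (median -0.16, 7 lower at that p, 1 by DESeq2) and none of 22 mature neutrophil genes (median -0.15, 2 lower at that p, 1 by DESeq2). Within the BMX-001 settings, 8 of 20 secondary granule genes were called lower in 5-FU against PBS (40%, against 4.02% of all genes; median -0.28), as were 2 of 18 primary granule and 2 of 22 mature neutrophil genes. In BMX-001+5-FU against BMX-001 none was called, and 10 of the 20 secondary granule genes were negative (median 0.002). No member passed the test of the difference between settings. Mpo, the main enzyme of primary granules, ranged from 1518 to 2040 CPM in libraries with 5-FU and from 1377 to 2258 CPM in those without. Among monocyte genes, Cx3cr1, the fractalkine receptor of patrolling monocytes, was the only 1 of 28 that fell (0.663% of all genes did). It was at 30.3 and 34 CPM in WT 5-FU and 37.2 and 40.3 CPM in WT BMX-001+5-FU libraries, against 52.6 and 51.6 CPM in WT PBS and 50.9 and 53.8 CPM in WT BMX-001 libraries. The 4 libraries without 5-FU lay close together and above all with it (-0.57 ± 0.07, adjusted p = 0.00528). Of the whole list 27 of 28 were negative (median -0.20), Cx3cr1 included, as were 8973 of all 18258 genes. The list summed to 5188 ± 292 CPM with 5-FU and 6079 ± 227 CPM without (exact permutation p = 0.0286, adjusted 0.1). DESeq2 called 6 of the 28 lower (407 of all 18258 genes were), and without a count filter 11 were (754 of all 31918). In 5-FU against PBS edgeR called 5 lower (4.02% of all genes were), and in BMX-001+5-FU against BMX-001 it called 0.

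Other cell types gave few calls. With edgeR no gene was called among 24 macrophage genes (median -0.17, 13 lower and 1 higher at an unadjusted p under 0.05, 0 by DESeq2), 13 MHC class II genes (-0.04, 1 lower at that p, 0 by DESeq2) or 20 basophil, mast cell and eosinophil genes (-0.08, 1 lower at that p, 1 by DESeq2). The 31 stromal genes gave none either (0.13, 1 higher at that p, 0 by DESeq2), and among 21 dendritic cell genes Spib was the only call (median 0.05). Among 32 T and NK cell genes Ptprcap fell (-0.54 ± 0.08, adjusted p = 0.0122), which B cells express as well, and the list's median was 0.04. For the megakaryocyte list 23 of 25 genes were positive, with a median of 0.30, but replicates were wide apart. With edgeR none was called (0 at an unadjusted p under 0.05, 0 by DESeq2), though without a count filter 14 of 25 were called higher (391 of all 31918 genes were). Without WT PBS replicate 2 the median was 0.02. Pf4, a platelet granule chemokine, was at 69.1 and 35.6 CPM in WT 5-FU and 40.7 and 63.1 CPM in WT BMX-001+5-FU libraries, against 49.3 and 15.3 CPM in WT PBS and 56.3 and 35.7 CPM in WT BMX-001 libraries. The lowest value belonged to WT PBS replicate 2, and the change was 0.43 ± 0.47 (adjusted p = 0.707). Stem and progenitor regulators had a median of 0.07 with Sox4 as the only call of 24, and Kit was at 0.06 ± 0.06 (adjusted p = 0.697).

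Of the 8 genes that rose, Eda2r encodes a death receptor of the TNF receptor family and is a known p53 target. It had 24 and 40 counts in WT 5-FU and 43 and 62 counts in WT BMX-001+5-FU libraries, against 2 and 8 counts in WT PBS and 3 and 5 counts in WT BMX-001 libraries. In CPM these were 0.674 and 0.98, 1.06 and 1.62, against 0.0552 and 0.216, 0.0846 and 0.137, in the same order of libraries. All values with 5-FU lay above all without, and the change was 3.07 ± 0.39 (adjusted p = 0.00528), at a level near 1 CPM. Eda2r passed the filter on low counts only through the libraries with 5-FU, so a gene like it could enter the test only by differing. Ccng1, a cell cycle regulator induced by p53, was at 87.1 and 88.8 CPM in WT 5-FU and 92.4 and 81.6 CPM in WT BMX-001+5-FU libraries, against 73.9 and 71.4 CPM in WT PBS and 70.5 and 68.4 CPM in WT BMX-001 libraries. The sets were apart by a small margin (0.30 ± 0.06, adjusted p = 0.0339). With GC and length offsets the log2 fold change of Ccng1 was 0.21 and the call was lost, as it was in 9 of 19 alternative settings in all (adjusted p up to 0.393).

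Eda2r and Ccng1 were the only calls among 34 p53 target genes, whose median was 0.04. With GC and length offsets 1 was called, and DESeq2 called 3, all higher. Within the BMX-001 settings, edgeR called 5 of 34 higher in 5-FU against PBS (3.68% of all genes were) and 0 in BMX-001+5-FU against BMX-001. Cdkn1a, the p21 inhibitor of cyclin-dependent kinases, was at 14.7 and 15.8 CPM in WT 5-FU and 18.1 and 11.4 CPM in WT BMX-001+5-FU libraries, against 8.55 and 20.3 CPM in WT PBS and 7.59 and 8.78 CPM in WT BMX-001 libraries. WT PBS replicate 2 had the highest value of the 8, the library that also held the most Fos (0.46 ± 0.34, adjusted p = 0.566). Phlda3, a p53-induced inhibitor of Akt, was at 0.99 ± 0.30 (adjusted p = 0.161), Mdm2, the ligase that degrades p53, at 0.03 ± 0.06 (adjusted p = 0.829), and the death genes Bax and Fas at 0.01 and -0.15 (adjusted p = 0.974 and 0.586).

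The other genes that rose were Rragd, a small GTPase of nutrient signalling to mTORC1 (0.52 ± 0.11, adjusted p = 0.0429), the antibody segment Igkv4-63 and 4 predicted or unnamed loci. Rragd was at 12.5 and 15.6 CPM in WT 5-FU and 14.6 and 15.3 CPM in WT BMX-001+5-FU libraries, against 9.35 and 11.5 CPM in WT PBS and 10.3 and 9.41 CPM in WT BMX-001 libraries. The call of Rragd was lost in 11 of 19 alternative settings (adjusted p up to 0.227). Igkv4-63 lay at 0.882 to 1.85 CPM with 5-FU and 0.405 to 0.69 CPM without (1.47 ± 0.28, adjusted p = 0.0309). Its call was lost in 7 of 18 alternative settings, among them limma voom and 5 in which 1 library was left out (adjusted p up to 0.183). Over the 176 immunoglobulin variable segments tested, 138 were negative, with a median of -0.49 and no other call by edgeR, whereas DESeq2 called 11 lower and none higher. Without a count filter 71 of 211 segments were called lower and 8 higher (754 and 391 of all 31918 genes were). Segments of this family share sequence, so the assignment of reads among them is uncertain.

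The drug's direct target did not pass the test. Tyms, the gene of thymidylate synthase, was at 101 and 103 CPM in WT 5-FU and 103 and 100 CPM in WT BMX-001+5-FU libraries, against 87.2 and 90.3 CPM in WT PBS and 92 and 91.1 CPM in WT BMX-001 libraries. Its sets did not overlap, yet the difference of 0.17 ± 0.05 did not pass over all genes (adjusted p = 0.172). With edgeR none of 28 thymidylate and fluoropyrimidine genes was called (median 0.03, 2 higher and 1 lower at an unadjusted p under 0.05), none of 24 genes of uracil excision and mismatch repair (0.02, 1 lower at that p) and none of 42 proliferation genes (-0.02, 1 higher and 5 lower at that p), and DESeq2 called 0 in each. Mki67, a marker of cycling cells, was at 3893 and 4191 CPM in WT 5-FU and 3601 and 4036 CPM in WT BMX-001+5-FU libraries, against 3704 and 3548 CPM in WT PBS and 4091 and 4116 CPM in WT BMX-001 libraries, with both sets covering nearly the same range (0.03 ± 0.08, adjusted p = 0.897).

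Stress lists held few calls. In the NRF2 target list edgeR called 0 of 30 genes (median -0.07, 1 higher and 9 lower at an unadjusted p under 0.05, 1 by DESeq2), and Nfe2l2, which encodes NRF2, was at 0.06 ± 0.06 (adjusted p = 0.701). Of 23 other antioxidant genes Cat and the mitochondrial carrier gene Ucp2 fell. Ucp2 averaged 1464 ± 124 CPM with 5-FU and 1950 ± 92.2 CPM without (SD, n = 4 each; -0.42 ± 0.07, adjusted p = 0.0213). Rsad2, an antiviral enzyme (-0.54 ± 0.10, adjusted p = 0.0292), was the only call among 34 interferon-stimulated genes, and the amino acid transporter Slc7a5 (-0.31 ± 0.06, adjusted p = 0.044) the only call among 25 genes of the ATF4 and unfolded protein response. The call of Slc7a5 was lost in 11 of 19 alternative settings, GC and length offsets and the replicate block included (adjusted p up to 0.394), and DESeq2 called 3 of the 25 lower. Of 26 NF-kappaB feedback genes edgeR called 0 (median -0.18, 1 higher and 6 lower at an unadjusted p under 0.05, 0 by DESeq2). Immediate early genes had a median of -0.65 with 0 of 24 called (2 lower at that p, 1 by DESeq2). Their sum was 1256, 1115, 1177 and 1164 CPM with 5-FU, against 1400 and 3115 CPM in WT PBS and 1199 and 1336 CPM in WT BMX-001 libraries, and without WT PBS replicate 2 the median was -0.23. Without a count filter 19 of the 24 were called lower (754 of all 31918 genes were).

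Replication-dependent histone genes encode the core and linker histones that package new DNA. Of 63, 5 fell (Hist1h1c, Hist1h2bn, Hist1h2af, Hist1h1e and Hist1h2bg) and 59 were negative, with a median of -0.33. Among all genes tested 0.663% fell and 8973 of 18258 were negative. DESeq2 called 32 of the 63 lower (407 of all 18258 genes were), and without a count filter 45 of 65 were called lower (754 of all 31918). Hist1h1c, a linker histone gene, was at 1929 and 1548 CPM in WT 5-FU and 1764 and 1950 CPM in WT BMX-001+5-FU libraries, against 2689 and 2872 CPM in WT PBS and 2177 and 2659 CPM in WT BMX-001 libraries (-0.53 ± 0.10, adjusted p = 0.028), with no overlap. With GC and length offsets 1 of 63 was called and the median was -0.08. The calls of Hist1h1c, Hist1h2bn, Hist1h2af and Hist1h1e were lost in 6, 8, 10 and 11 of 19 alternative settings. Histone genes are short and rich in G and C, and many share near-identical sequence.

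The GC trend was measured over 12156 genes split into 4 equal bins. From the lowest to the highest GC content the median fold change was 0.066, 0.005, -0.041 and -0.092, and the share of genes that fell was 0.296%, 0.888%, 1.18% and 1.55%. From the shortest to the longest transcripts the median was -0.08, -0.031, 0 and 0.034. Spearman's correlation across genes, which are not independent replicates, was -0.40 with GC content and 0.27 with length. In BMX-001+5-FU against BMX-001 these were -0.008 and -0.093, and in 5-FU against PBS -0.47 and 0.38. With offsets that flatten both trends (0.022 and -0.001), 157 genes were called, 15 higher and 142 lower, and 101 of the 129 were among them. Under these offsets 11 late erythroid genes and 11 pro-B and pre-B genes were called lower. In the fit without offsets edgeR called 0 of 82 cytosolic ribosomal protein genes (median -0.17, 1 higher and 51 lower at an unadjusted p under 0.05, 6 lower by DESeq2), 0 of 309 high-numbered zinc finger genes (0.10, 42 higher and 9 lower at that p, 4 higher and 1 lower by DESeq2), 0 of 13 mitochondrial transcripts (0.22, 1 higher at that p, 1 by DESeq2) and 0 of 19 nuclear and small-RNA host noncoding RNAs (0.20, 6 higher at that p, 2 by DESeq2). With the offsets these medians were -0.09, 0.05, 0.18 and 0.15.

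**Figure D3:**
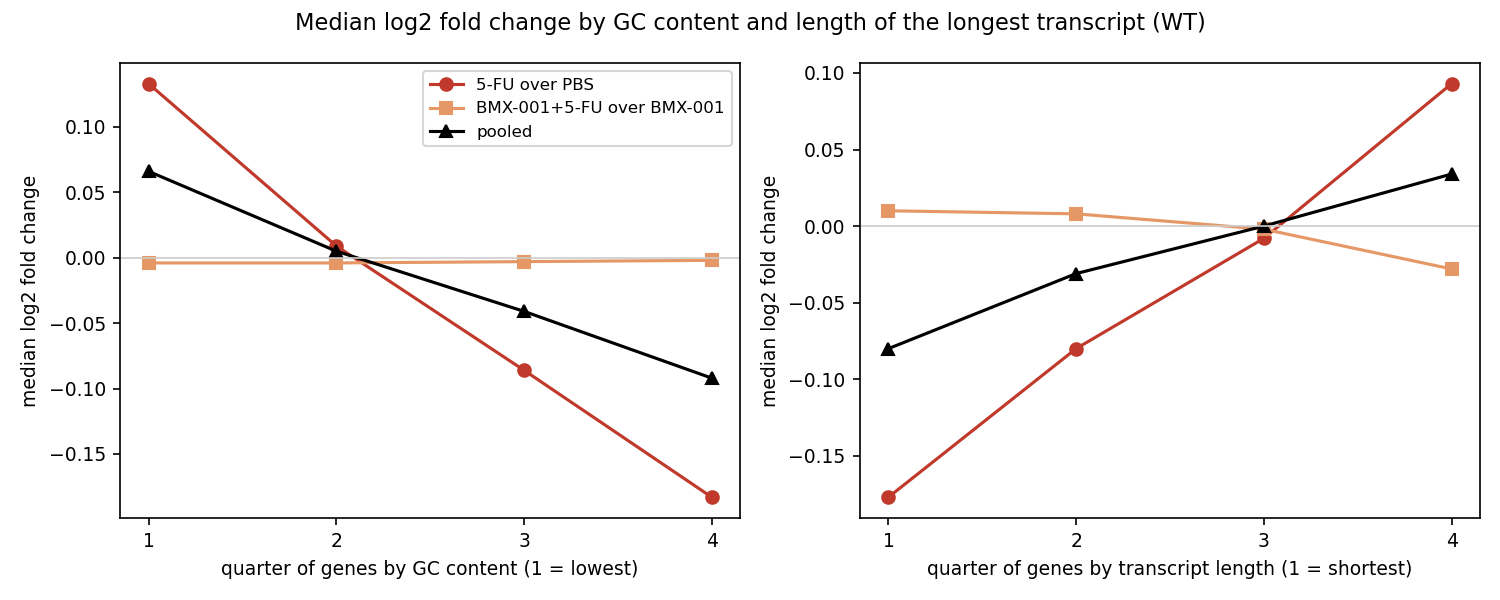
Median log2 fold change (vertical axes) of 4 equal bins of genes ordered by GC content (left) or length (right) of the longest transcript, for 5-FU over PBS, for BMX-001+5-FU over BMX-001 and for the pooled comparison in WT. The 5-FU over PBS line runs from 0.133 in the lowest GC bin to -0.183 in the highest, while the BMX-001+5-FU over BMX-001 line stays between -0.004 and -0.002.

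Many of the genes that fell, 76 of 121, stood in none of the lists. Tubb2b, a beta-tubulin gene, had the lowest fold change of the 129 (-0.80 ± 0.13, adjusted p = 0.0133), with 3.06 to 4.08 CPM with 5-FU and 5.59 to 6.51 CPM without. Neil1, a glycosylase that removes oxidised bases from DNA, was at 7.98 and 6.15 CPM in WT 5-FU and 7.27 and 9.28 CPM in WT BMX-001+5-FU libraries, against 13.5 and 13.2 CPM in WT PBS and 13.1 and 13.3 CPM in WT BMX-001 libraries. Its levels without 5-FU were nearly equal and all above those with it (-0.80 ± 0.12, adjusted p = 0.00967). Pafah1b3, a subunit of platelet-activating factor acetylhydrolase (-0.73 ± 0.12, adjusted p = 0.0154), and Gfra1, a receptor of the GDNF family (-0.67 ± 0.11, adjusted p = 0.0153), complete the 10 lowest without overlap.

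Of the 13 genes called whichever library was left out, the polyubiquitin gene Ubb was at 503 and 492 CPM in WT 5-FU and 585 and 604 CPM in WT BMX-001+5-FU libraries, against 727 and 875 CPM in WT PBS and 813 and 928 CPM in WT BMX-001 libraries (-0.62 ± 0.08, adjusted p = 0.00528). Bcl2l1, whose product BCL-XL keeps late erythroblasts alive, was at 298 and 256 CPM in WT 5-FU and 345 and 365 CPM in WT BMX-001+5-FU libraries, against 410 and 516 CPM in WT PBS and 483 and 537 CPM in WT BMX-001 libraries (-0.63 ± 0.09, adjusted p = 0.00638). For both genes the sets did not overlap. The ligase gene Rnf10 (-0.63 ± 0.08), Fam214b (-0.56 ± 0.07) and Cnp (-0.58 ± 0.08), a phosphodiesterase best known from myelin, were also without overlap.

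The same 129 genes were then read within each BMX-001 setting, in a fit of 4 group means. All 129 had the same sign in both. The 121 that fell had a median of -0.38 in BMX-001+5-FU against BMX-001, and of -0.54 in 5-FU against PBS, and 103 of them moved further without BMX-001. Since the pooled fit chose them on these libraries, the choice itself favoured the same sign in both, and this is a description. Among 12324 genes not chosen by that test, fold changes with and without BMX-001 were only weakly correlated (Spearman 0.198). For Cat the changes were -0.62 ± 0.10 with BMX-001 and -0.64 ± 0.10 without, for Epb41 -0.61 ± 0.13 and -0.61 ± 0.13, for Hba-a1 -0.35 ± 0.12 and -0.71 ± 0.12, and for Cx3cr1 -0.43 ± 0.09 and -0.70 ± 0.09. Between settings the estimates differed by 0.014 for Cat and 0.003 for Epb41, and those of Hba-a1 and Cx3cr1 were nearer to 0 with BMX-001 by 0.36 and 0.26 (edgeR adjusted p of the difference 0.396 and 0.375).

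No gene passed the test in BMX-001+5-FU against BMX-001, nor the test of the difference between the settings. In BMX-001+5-FU against BMX-001, edgeR called 0 genes (905 at an unadjusted p under 0.05, smallest adjusted p 0.244, and 67 called by DESeq2), but 56 when either WT PBS library was left out of the fit. For 5-FU against PBS it called 1405 (7.7%), 671 higher (3.68%) and 734 lower (4.02%), but 240 with GC and length offsets, 0 when WT 5-FU replicate 2 was left out and 9 when WT 5-FU replicate 1 was. The difference between the settings had 0 calls (2412 at an unadjusted p under 0.05, 61 by DESeq2), but 679 when WT PBS replicate 1 was left out and 35 when WT PBS replicate 2 was. The smallest p-values of that difference belonged to genes outside the 129, such as Ube3a, a ubiquitin ligase, at -0.05 ± 0.08 with BMX-001 and 0.62 ± 0.08 without (difference -0.67 ± 0.11, adjusted p = 0.152).

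**Figure D4:**
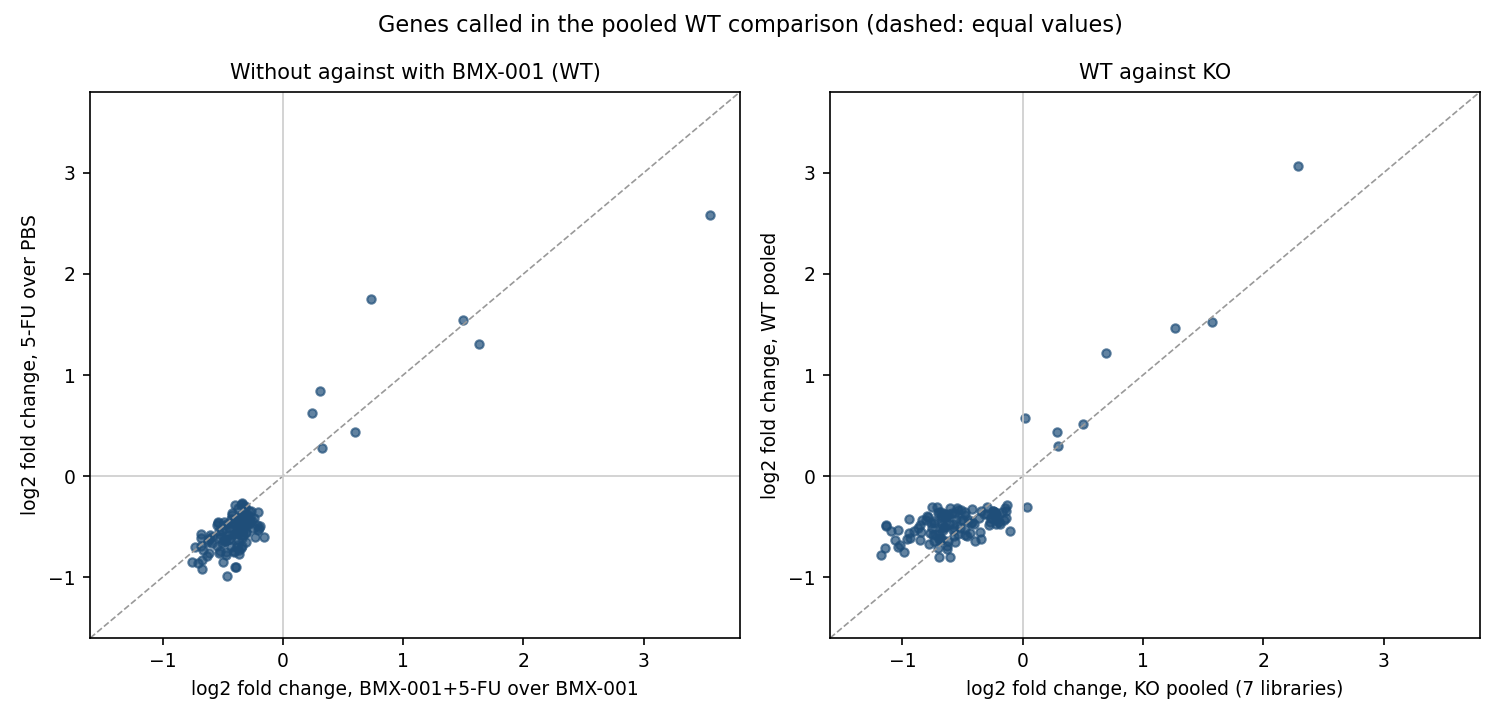
Log2 fold changes of the 129 genes called in WT, each a point: left, 5-FU over PBS (vertical) against BMX-001+5-FU over BMX-001 (horizontal); right, pooled WT (vertical) against pooled KO from 7 libraries, leaving out KO BMX-001 replicate 1 (horizontal). All points lie in the lower left or upper right of the left panel, and 120 of the 121 genes that fell in WT are negative in KO in the right panel.

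The KO libraries, which no choice of the 129 genes used, gave a test in other samples. Nfe2l2 itself was at 6.54 to 16.9 CPM in KO and 102 to 121 CPM in WT libraries. Pooled in the same way, 5-FU in KO had 130 calls (0.701%), 127 lower and 3 higher (0.0162%), and 617 (3.23%) without KO BMX-001 replicate 1, a library where Malat1, a nuclear noncoding RNA, stood at 12370 CPM while the other 7 KO libraries held 2573 to 4361 CPM, and where Mpo was at 287 CPM while they held 1484 to 2258 CPM. Of the 121 genes that fell in WT, 119 were negative in KO with a median of -0.57, and 49 were called lower (0.685% of all genes were). Without that library 120 were negative, with a median of -0.61, and 79 were called (2.87%). Of all genes tested in KO, 49.2% were negative, and 43.8% without that library. Among 12324 genes not chosen by their WT result, Spearman's correlation of WT with KO fold changes was 0.309, and 0.506 without that library. Of the 8 that rose, 7 were positive in KO, and all 8 without that library, with 1 called in all KO libraries and 4 (against 0.356% of all genes) without that library.

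Late red cell genes fell in KO too, where 0.685% of all genes tested were called lower. In KO, Ube2o was at 711 and 776 CPM in 5-FU and 829 and 833 CPM in BMX-001+5-FU libraries, against 1413 and 1844 CPM in PBS and 1470 and 1528 CPM in BMX-001 libraries (-0.99, adjusted p = 0.0133). Late erythroid genes had 16 of 25 called lower there, with a median of -0.73, and 20 of 25 without KO BMX-001 replicate 1 (median -0.71). Since the list was drawn up with earlier results of this series known, these counts are not independent evidence either. Eda2r was at 1.83 and 1.51 CPM in 5-FU and 1.4 and 1.44 CPM in BMX-001+5-FU libraries, against 0.4 and 0.24 CPM in PBS and 0.0339 and 0.316 CPM in BMX-001 libraries of KO mice (2.63, adjusted p = 0.0395), again without overlap.

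Of the pro-B and pre-B genes, 20 of 24 were negative in KO and 1, Myl4, fell (median -0.28), while without KO BMX-001 replicate 1 these were 22 negative and 3 that fell (median -0.26). Myl4 was at 4.94 and 9.26 CPM in 5-FU and 5.59 and 6.47 CPM in BMX-001+5-FU libraries, against 16.3 and 13.5 CPM in PBS and 13.2 and 15.3 CPM in BMX-001 libraries of KO mice, with no overlap (-1.15, adjusted p = 0.0426). Vpreb3 (-0.59, adjusted p = 0.452), Akap12 (-0.53, adjusted p = 0.508), Sox4 (-0.49, adjusted p = 0.393) and Blnk (-0.46, adjusted p = 0.494) did not pass there. Cd79a was at 120 and 144 CPM in 5-FU and 117 and 126 CPM in BMX-001+5-FU libraries, against 161 and 109 CPM in PBS and 111 and 149 CPM in BMX-001 libraries of KO mice, with full overlap (-0.06, adjusted p = 0.876). The difference between genotypes itself was not shown. For Cd79a it was 0.35 ± 0.17, KO minus WT (adjusted p = 0.689), and over all 19152 genes 0 differed (edgeR, 1300 at an unadjusted p under 0.05, smallest adjusted p 0.689, and 39 called by DESeq2). Without KO BMX-001 replicate 2, which leaves KO BMX-001 replicate 1 alone in its group, the count was 3645.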

How the data were processed

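RNA of mouse bone marrow cells was sequenced in 16 libraries, of which the 8 WT libraries are analysed here. The authors deposited 1 table of unnormalised whole-number counts over 57132 Ensembl genes. Per the submitters' processing notes the build was GRCm39 and the tools were featureCounts, Salmon 1.4.0, Trim Galore 0.6.4, FastQC 0.12.1, R 4.3.0 and DESeq2 1.38.3. Which of them made the counts, with which annotation and strand setting, is not given in the sources used here. Symbols, GC content and length were joined by gene ID from a GRCm38 annotation (51880 IDs; unnamed IDs held 2.59% of WT counts), so no coordinates of the counts are given. Promoters are RefSeq's.

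In R 4.3.3, filterByExpr left 18258 genes, TMM factors scaled the libraries (34387432 to 39909188 counts), and edgeR 4.0.16 fitted 5-FU plus a BMX-001 block by robust quasi-likelihood, with 5 residual degrees of freedom. Calls are at a Benjamini-Hochberg adjusted p under 0.05 over all genes tested. Each BMX-001 setting and their difference came from 4 group means with 4 residual degrees of freedom, and the KO minus WT difference from all 16 libraries. Sums of normalised CPM over lists were compared by two-sided exact permutation. The scripts were tested on simulated data. Alternatives were DESeq2 1.42.0, limma 3.58.1 voom, other scaling, no filter, GC and length offsets (splines with 5 degrees of freedom), a replicate block and leaving out each library; voom, an adjusted p under 0.1, the pooled KO effect and its fit without KO BMX-001 replicate 1 were added after seeing the data.

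The comparison and the 37 gene lists (747 of 751 symbols matched, besides 4 lists defined by name pattern) were chosen with earlier results of these data known. Genes named by rule were the 10 highest and 10 lowest fold changes among calls without overlap and averaging a log2 CPM of 1 or more, up to 4 called members of each list or, where none was called, the 2 with the highest level, a fixed set (the globins, Cat, Cdkn1a, Mdm2, Tyms, Nfe2l2, Fos, Jund, Zfp958 and Malat1), and the 3 of smallest p in each test of a difference. All other genes named were chosen after their values were seen. No columns of counts were left unused.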

Additional observations from a re-analysis of the deposited data

Results flagged for a closer look

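In each arm of 4 WT libraries, a value was picked out where its gap to the nearest of the others, divided by the arm's range, exceeded Dixon's limit of 0.829. The check covered 218 sets of 4 values, each a gene or summed list in an arm, and 8 of the sets held such a value. Chance alone picks out about 1 set in 20, a share that 8 of 218 does not exceed.

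WT PBS replicate 2 gave 3 of the 8. It held 299 CPM of Fos, against 15.4 to 37.8 CPM in the other 3 libraries without 5-FU, 20.3 CPM of Cdkn1a, against 7.59 to 8.78 CPM, and 3120 CPM over the immediate early list, against 1200 to 1400 CPM. WT PBS replicate 1 was low for the summed zinc finger list, at 5960 CPM against 6250 to 6290 CPM in the other 3. WT BMX-001+5-FU replicate 1 was low for the lymphoid factor Ikzf1, at 485 CPM against 516 to 521 CPM in the other 3 libraries with 5-FU, and high for the MHC class II gene H2-Aa, at 316 CPM against 240 to 248 CPM. WT BMX-001 replicate 2 was high for H2-Aa, at 278 CPM against 251 to 252 CPM, and for Myl4, at 24 CPM against 21.7 to 21.8 CPM.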

How the results depend on the processing

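The 129 pooled calls (8 higher, 121 lower) became 1145 without a count filter (391 and 754), 514 with DESeq2 (107 and 407), 425 from 4 group means (123 and 302), 293 at an adjusted p under 0.1 (47 and 246), 82 without the BMX-001 block (73 lower) and 11 in a fit to all 16 libraries (2 and 9); GC and length offsets gave 15 higher. The cause was not tested, beyond the threshold for 293. Of all calls, 65.9% were lower without a filter, 79.2% with DESeq2, 71.1% from 4 group means and 93.8% in the fit reported. For 5-FU against PBS, offsets left 240 calls (103 and 137). DESeq2 called 67 in BMX-001+5-FU against BMX-001 (2 and 65), 61 for the difference between settings (13 and 48) and 39, all lower, for KO minus WT. The KO effect without KO BMX-001 replicate 1 had 617 calls (68 and 549).

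Leaving out each library in turn gave 15 to 263 pooled calls (1 to 52 higher, 12 to 211 lower), 0 to 2619 for 5-FU against PBS (0 to 1190 higher, 0 to 1429 lower), 0 to 56 for BMX-001+5-FU against BMX-001 (0 to 3 higher, 0 to 53 lower), 0 to 679 for the difference between settings (0 to 335 higher, 0 to 344 lower) and 0 to 3645 for KO minus WT (0 to 2327 higher, 0 to 1318 lower).

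Signs of genes near 0 and not called turned with GC and length offsets for Tfrc (-0.005), Elane (0.02), S100a8 (0.057), Cd74 (0.056), Mki67 (-0.041) and Ftl1 (0.039). On total-count CPM the summed T and NK cell list had a ratio of 1.055, with 5-FU over without. Leaving out each library in turn, the values of genes and sums that turned were -0.214 to 0 for Elane, -0.157 to 0.018 for S100a8, -0.091 to 0.003 for Vcam1, -0.13 to 0.033 for Cd74, -0.074 to 0.069 for H2-Aa, -0.152 to 0.227 for Thbs1, -0.061 to 0.018 for Pcna, -0.021 to 0.083 for Mki67, -0.042 to 0.019 for Top2a, -0.095 to 0.071 for Zfp207, -0.008 to 0.076 for Mdm2 and -0.004 to 0.099 for Nfe2l2, and ratios of 0.902 to 1.024 for the T and NK cell sum and 0.994 to 1.029 for the zinc finger sum.

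Replicate numbers did not pair the libraries: deviations of same-numbered libraries correlated at -0.228 to 0.295 over the 6 pairs of groups. A replicate block gave 106 calls (5 higher, 101 lower), 99 of them among the 129. The block with GC and length offsets gave 154 calls and the same 6 sign changes (-0.003, 0.021, 0.062, 0.055, -0.041 and 0.04).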
